A study of Mus musculus with 12 samples.

Results

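The 190763 autosomal regions described here are those at which the authors called a difference in total cytosine modification, 5-methylcytosine plus 5-hydroxymethylcytosine (5mC + 5hmC), between retinas with and without the TET enzymes. They were taken as every row on chromosomes 1 to 19 of the list made from whole-genome bisulfite sequencing (WGBS), out of 786742 WGBS and bACE-seq regions in the series. A further 3073 WGBS regions lay on X and Y and were not included. Retinas were whole, from animals of strain C57 BL/6J at postnatal day 21 (P21), and each group had 3 WGBS libraries. Tet tcKO animals carried loxP-flanked alleles of Tet1, Tet2 and Tet3 that were deleted by a Chx10-driven Cre-GFP transgene in retinal progenitor cells. The control animals were Cre-negative (Cre-) and were labelled WT. The transgene is mosaic, and the study bred Cre-positive animals to each other to raise its dose. Controls were of the same age but came from breeders without Cre. Tet deletion, the transgene and the breeding line therefore cannot be told apart here. Microglia and blood vessels lie outside the progenitor lineage in which this Cre acts, and their DNA was part of each sample. DNA came from a TRIZOL extraction that also yielded RNA, for which the study pooled the retinas of a pair of animals.

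TET enzymes oxidise 5mC to 5hmC and further, which opens the way to unmodified cytosine. Bisulfite treatment converts unmodified cytosine and leaves 5mC and 5hmC, so WGBS reads both as modified. Most CpGs of a mammalian genome are methylated. Clusters of CpGs at gene starts, the CpG islands, are usually unmethylated, whereas enhancers and the CpG-poor promoters of tissue-specific genes often lose modification in the cells that use them. In the normal mouse retina most cells are rods, so a level measured in whole Cre- retina is weighted towards rods. The study reported far fewer cells with rod markers and more with cone markers in Tet tcKO retinas. Levels of that group therefore cannot be read as weighted towards rods in the same way. A change within a cell type and a change in the proportions of cell types cannot be told apart in this bulk DNA.

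For each region the list holds 1 mean level per group, pooled by the authors over the 3 libraries. The spread between libraries and the reads behind a level were therefore not analysed here, and no test was made. Every region had passed the authors' test of this same contrast, so its direction and size are descriptions. A change is the Tet tcKO level minus the Cre- level, in percentage points. A region with a positive change is called a gain and one with a negative change a loss.

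In all, 4 stretches of the mouse reference genome are printed to show what kinds of sequence gained or lost modification, with CpGs in capitals and all else in lower case. The first 3 are 200 bp around the midpoint of the region that ranked first by the authors' area statistic among CpG-poor gains, CpG-dense gains and CpG-dense losses at a start site. CpG-poor means under 2 CpGs per 100 bp of the whole region, and CpG-dense means 8 or more. The fourth is the 250 bp before the RefSeq start site of Samd7, a photoreceptor-specific repressor, read on its own strand. It was picked with its values in view, as the photoreceptor transcription factor with the highest share of promoter CpGs in a gain and no annotated UTR in those bases.
Rbp3, gain, chr14:33954445-33954644 (GRCm38, plus strand): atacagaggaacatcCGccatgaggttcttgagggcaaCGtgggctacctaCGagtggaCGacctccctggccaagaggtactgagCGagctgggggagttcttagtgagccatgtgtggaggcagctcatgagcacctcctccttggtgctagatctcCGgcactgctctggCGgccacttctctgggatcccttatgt
Fignl2, gain, chr15:101053530-101053729 (GRCm38, plus strand): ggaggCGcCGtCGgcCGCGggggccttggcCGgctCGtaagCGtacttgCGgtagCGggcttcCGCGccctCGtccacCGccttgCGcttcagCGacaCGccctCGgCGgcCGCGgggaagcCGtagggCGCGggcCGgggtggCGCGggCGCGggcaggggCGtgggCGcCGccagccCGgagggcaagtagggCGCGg
Tmem200b, loss, chr4:131921205-131921404 (GRCm38, plus strand): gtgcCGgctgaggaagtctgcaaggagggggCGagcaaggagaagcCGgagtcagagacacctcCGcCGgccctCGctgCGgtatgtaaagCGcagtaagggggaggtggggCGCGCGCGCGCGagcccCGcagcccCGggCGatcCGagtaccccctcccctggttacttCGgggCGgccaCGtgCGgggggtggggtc
Samd7 promoter, gain, chr3:30746043-30746292 (GRCm38, plus strand): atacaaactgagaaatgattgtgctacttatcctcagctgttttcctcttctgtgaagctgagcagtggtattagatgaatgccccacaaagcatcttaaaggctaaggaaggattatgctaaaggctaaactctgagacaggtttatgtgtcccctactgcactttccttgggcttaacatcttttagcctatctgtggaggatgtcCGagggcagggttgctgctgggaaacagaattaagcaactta

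These stretches hold 7 CpGs at Rbp3, 35 at Fignl2, 22 at Tmem200b and 1 in the Samd7 promoter. Rbp3 encodes the interphotoreceptor retinoid-binding protein, and its gain ran over 9562 bp and 179 CpGs from 28.2% in Cre- to 72.4% in Tet tcKO. The Fignl2 gain packed 181 CpGs into 1251 bp, and it rose from 41.8% to 56.7%. At Tmem200b 248 CpGs lay within 1891 bp and the level was lower in Tet tcKO, 15.2% against 25.2%. The Samd7 promoter lay in a gain of 41 CpGs from 32.3% to 72.9%. Of the 4 regions, the 2 with few CpGs per base rose by more than 40 points, and the 2 dense ones moved by less than 15.

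Of the 190763 regions, 188451 were gains and 2312 (1.21%) were losses. The gains held 1854486 CpGs, 9.10% of those on the autosomes, in 93.1 Mb. Gains are by definition higher in Tet tcKO. Their levels in that group were also more alike, and the part of the upper bound on a level in this was not tested. The SD of the level across gains was 20.0 points in Cre- and 17.1 in Tet tcKO, and the middle 50% of gains lay from 47.4% to 76.4% in Cre- and from 71.1% to 89.0% in Tet tcKO. Levels of 80% or more were found in 17.1% of the gains in Cre- and in 56.6% in Tet tcKO. Losses had a Cre- median of 88.8% and a Tet tcKO median of 72.3%, with a median change of -9.62 points. On every autosome the median gain lay between 14.5 points (chromosome 17) and 16.2 points (chromosome 9). The share of losses varied more, from 0.666% of regions on chromosome 15 to 2.44% on chromosome 9.

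**Figure D1:**
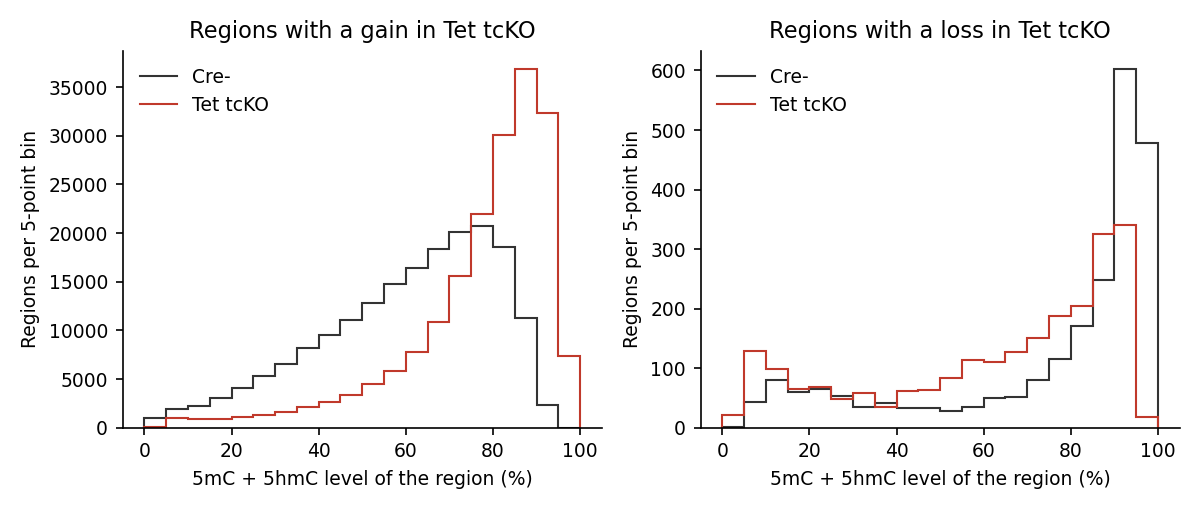
Number of autosomal regions in each 5-point bin of the 5mC + 5hmC level (x axis, percent), in Cre- (black) and Tet tcKO (red), for regions with a gain (left) and with a loss (right). Each region is counted once per group; gains at 80% or more went from 17.1% to 56.6% of all gains, and 1500 of 2312 losses started at 80% or more.

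How far a region rose differed with the level from which it started. Gains that started between 20% and 40% had the highest median rise, 22.9 points (10th to 90th percentile 13.1 to 39.0, n = 24247 regions). Those that started between 40% and 60% rose by a median of 21.4 points (n = 48220) and those between 60% and 80% by 14.3 points (n = 75637). The median was lowest at both ends, 11.1 points below 20% (n = 8172) and 8.43 points at 80% and over (n = 32175). A rise is bounded by what is left to fill, so each rise was also divided by the unmodified part of the Cre- level. On that scale the order ran in 1 direction: the median gain filled 13.0% of the unmodified part when it started below 20%, 33.8% from 20% to 40%, 44.8% from 40% to 60%, 50.2% from 60% to 80% and 55.1% from 80%. Over all gains the median was 48.2%. Only called changes entered, and at a high start level even a small called rise is a large share of what is left. At 80% and over the 10th percentile was 5.64 points for the rise and 42.9% for the share filled. Below 20% these were 3.33 points and 3.54%. The part of calling in this order was not tested.

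The end points differed accordingly. Of gains starting from 60% to 80%, 87.1% reached 80% or more, and of those starting from 40% to 60%, 17.2% did. In the class from 20% to 40%, 53.9% ended between 40% and 60% and 36.0% between 60% and 80%. Among the 8172 gains that started below 20%, 35.3% stayed below 20%, 49.4% ended between 20% and 40%, and 3 regions reached 80%. The smallest changes in the list were not alike in size across these classes. The 10th percentile of the rise was 3.33 points below 20% and 14.6 points from 40% to 60%, and the part of this difference in the class medians was not tested. With only changes of at least 20 points kept, the median rise was 28.9 points below 20% and 29.3 points from 20% to 40%.

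CpG density, the number of CpGs per 100 bp between the first and last CpG of a region, went with the size of the rise in each class of start level. Gains with under 1 CpG per 100 bp rose by a median of 21.7 points, and the medians of the next classes were 18.4 points (1 to 2), 13.8 points (2 to 4), 9.19 points (4 to 8) and 4.84 points (8 and over). Within start levels of 20% to 40% the median rise was 31.4 points in the sparsest class and 9.15 points in the densest. From 60% to 80% the corresponding medians were 17.5 and 9.65 points. The contrast was steepest below 20%, with 29.7 points (n = 185 regions) against 2.97 points (n = 1167 regions). The 10th percentile of the rise also fell with density, from 13.3 points in the sparsest class to 2.02 points in the densest, so smaller changes were called in dense sequence. The share of the unmodified part that was filled followed the same order in all 5 start classes, for example 34.8% against 3.13% below 20% and 66.7% against 45.8% at 80% and over.

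**Figure D2:**
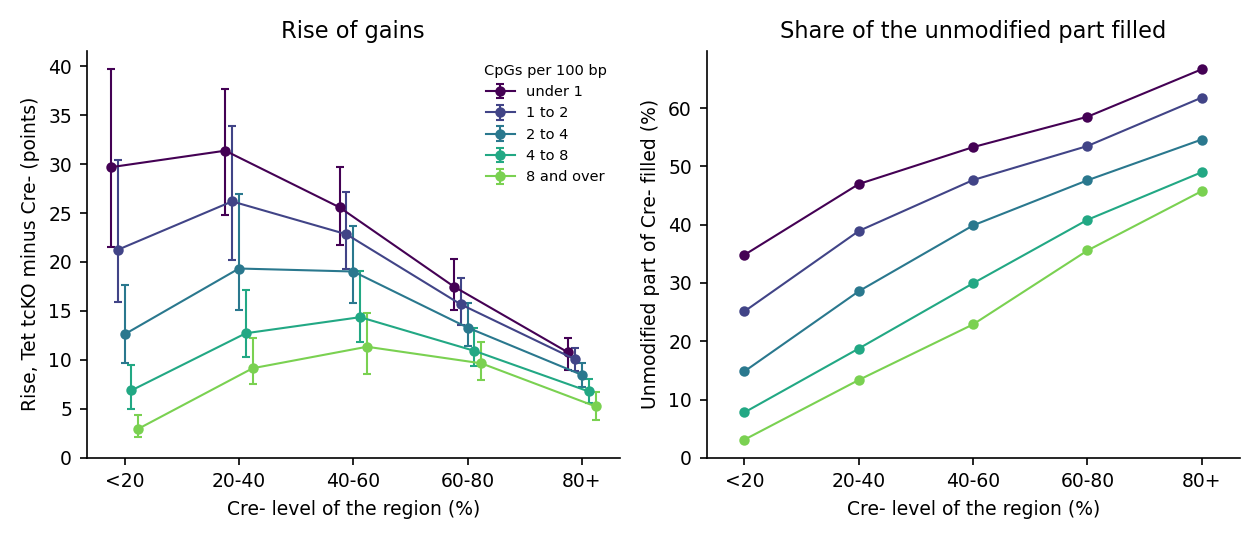
Median rise of gains in percentage points (left, bars from the 25th to the 75th percentile of regions, not replicate error) and median share of the unmodified part of the Cre- level that was filled (right, percent), by class of Cre- level (x axis) and class of CpGs per 100 bp (colours). In each class of start level the sparsest regions lie highest and the densest lowest, from 31.4 to 9.15 points between 20% and 40%.

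A region starts and ends at a CpG, so a short region is dense by construction. CpGs were therefore also counted in a fixed window of 1 kb around each midpoint, a measure chosen after the data had been seen. By that measure the median gain had 1.3 CpGs per 100 bp and the median loss 2.0, where windows placed every 10 kb along the autosomes had 0.7. The order of the rises was the same: the median was 19.2 points under 1 CpG per 100 bp, 15.1 points from 1 to 2, 11.6 points from 2 to 4 and 5.15 points at 4 and over. The last class, with 3373 gains, had a Cre- median of 11.8% and a Tet tcKO median of 18.9%, so gains in such CpG-rich sequence started low and ended low.

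Larger gains were also longer. Gains of at least 5 kb numbered 186 and had a median rise of 31.5 points, from a median Cre- level of 40.1%. The 21 gains of at least 10 kb had a median rise of 36.3 points. Size enters both the calling and the mean of a region, and its part in the rise was not tested. The longest, 22739 bp with 231 CpGs, covered a start site of Agpat3, an acyltransferase of phospholipid synthesis, and rose from 42.5% to 78.8%. By the authors' area statistic the first was at Prph2, a structural protein of outer segment discs. Also among the first 8 were Ctbp2, which shares its locus with the ribbon synapse protein RIBEYE (36.0% to 75.8%, 264 CpGs) and Rbp3. Mn1, a transcriptional regulator, gained over 206 CpGs from 27.8% to 51.3%, and Kcnv2, a potassium channel subunit of photoreceptors, over 129 CpGs from 30.6% to 78.9%.

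Gains with at least 20 CpGs and the largest rises began near 20% and ended near 70%. At Rtn4, which encodes the Nogo proteins, the level rose by 57.1 points, from 19.9% to 77.0% over 21 CpGs. Ablim1, which encodes an actin-binding protein found in the retina, had a gain centred 11 bp from a start site, from 17.3% to 69.6%. Crx, the homeodomain factor needed for photoreceptor gene expression, had a gain of 8814 bp and 68 CpGs from 15.6% to 67.7%. Tob1 (22.0% to 73.2%) and Rp1, a microtubule protein of the photoreceptor axoneme (22.6% to 72.7%), were also among the first 8. Gains nearest to Gm13063 and Gpr180 rose by 51.3 and 50.9 points. All 8 had under 3 CpGs per 100 bp.

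With respect to genes, 10.5% of gains had their midpoint within 2 kb of a start site, 5.13% in an exon, 52.2% in an intron and 32.2% between genes. With windows of 1 kb or 5 kb the share at start sites was 5.80% or 20.0%. Gains at start sites began at a lower level than the others, with a median of 48.6% in Cre- against 66.2% in introns, 62.9% between genes and 72.6% in exons. The median rises were closer together, at 14.1, 15.7, 15.8 and 11.6 points in the same order. Of gains that started below 20%, 47.5% lay at start sites, against 5.82% of those that started at 80% or more. In 500-bp steps around the nearest start site, the median Cre- level of gains was 37.6% to 46.2% within 1 kb and 62.7% to 66.7% from 2 kb downstream. Tet tcKO levels in these steps were 56.1% to 66.4% and 82.0% to 84.1%, so the dip around start sites was present in both groups.

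**Figure D3:**
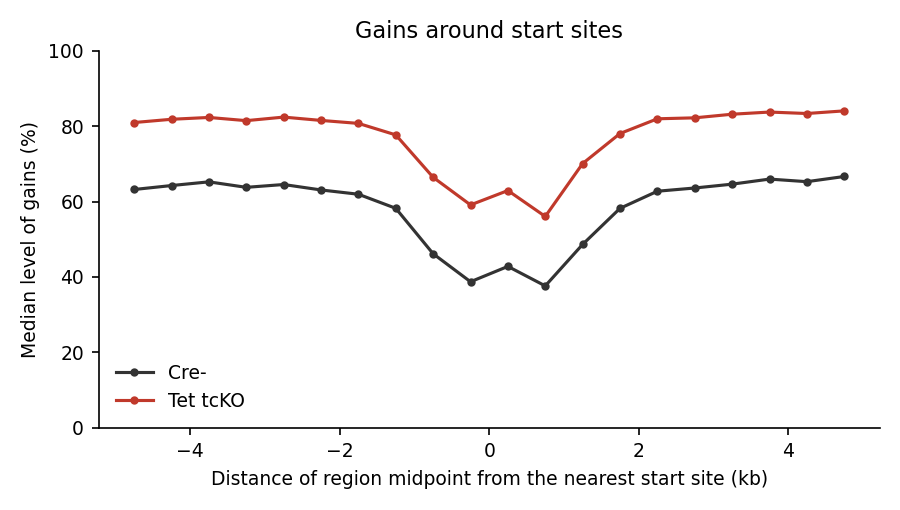
Median level of gains (percent) in Cre- (black) and Tet tcKO (red) in 500-bp steps of the distance between a region's midpoint and the nearest start site (x axis, kb, negative upstream). Both lines dip around the start site, where the Cre- median falls to 37.6% and the Tet tcKO median to 56.1%.

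At start sites the regions that ranked first below 20% had 4.77 to 8.55 CpGs per 100 bp. B3glct, which encodes a glucosyltransferase, had 146 CpGs at 7.63% in Cre- and 31.2% in Tet tcKO. Fezf2, a zinc finger factor of the forebrain that is also made in some retinal bipolar cells, had 224 CpGs at 13.3% and 27.4%. Tnxb, which encodes a tenascin, had 182 CpGs at 19.4% and 29.2%. At 80% and over the first 3 had 4.61 to 7.11 CpGs per 100 bp, and those from 60% to 80% had 1.38 to 3.61. Both classes held fewer CpGs per region than the first 3 below 20%. From 60% to 80% the leading one was Fscn2, which encodes the fascin of photoreceptors, with 59 CpGs at 62.3% and 83.0%, and Galnt4 led the class at 80% and over with 39 CpGs at 80.9% and 91.7%.

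Every CpG within 2 kb of a start site of a gene was then counted as lying in a gain, in a loss or in neither. Of 20807 autosomal protein-coding genes, 10937 (52.6%) had at least 1 gain overlapping this window and 250 (1.2%) a loss, and 149 had both. With only changes of at least 20 points kept, 3519 genes had a gain and 9 a loss. Most windows were touched rather than filled. The median gene had 2.55% of its window's CpGs in a gain, and 327 genes (1.57%) had 50% or more. Those 327 had a median window density of 1.65 CpGs per 100 bp, where all protein-coding genes had 2.12. A gain was least often found where there were few CpGs: 12.6% of genes with under 1 CpG per 100 bp had one, against 56.2% from 1 to 2, 66.3% from 2 to 4 and 71.6% from 4 to 8. The smallest region had 4 CpGs, so sparse windows offer fewer places for a call, and that part was not tested. The median share of window CpGs in a gain was 0% in the sparsest of these classes. In the next ones it was 5.80%, 5.65% and 4.44%. Levels printed for listed genes below are means over the whole regions that overlap a window, and such regions can run past it. At Sag 45 window CpGs lay in a gain of 159 CpGs, and at Tet3 55 lay in gains of 126 CpGs.

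Lists of photoreceptor genes had median shares well above the 2.55% of the median gene. Their counts of genes with a gain stand beside the 52.6% of all protein-coding genes that had one. All 15 autosomal genes of a rod phototransduction list had a gain, and the median share of window CpGs in a gain was 80.4%, with 13 of 15 at 50% or more. In Sag, which encodes rod arrestin, and in Gnat1, the rod transducin alpha subunit, the gain covered 100% of the window's CpGs. The levels were 42.9% in Cre- and 76.4% in Tet tcKO at Sag, and 32.4% and 53.2% at Gnat1. Grk1, rhodopsin kinase, had 96.2% of the window's CpGs in a gain (38.2% to 75.8%). Cnga1 and Rcvrn, which encode a subunit of the rod channel and recoverin, had 68.1% and 91.5%. Gnb1, a beta subunit used in many tissues, had 28.6% of its window's CpGs in gains, and these gains were at 22.8% and 60.2%. Rgs9 was the lowest of the list with 16.3%.

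All 14 genes of outer segment and photoreceptor structure had a gain, with a median share of 62.1%. The gain at Prph2 covered 83.8% of the window's CpGs. Mak, a kinase of the photoreceptor cilium, had 48.2% (43.9% to 71.9%), and Rom1, a partner of the Prph2 product, had 63.8% (17.6% to 48.7%). Rp1l1, Prom1 and Unc119, which serve the cilium and the discs, had 73.5%, 47.4% and 60.4%. Reep6 was the lowest, at 10.4%.

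Photoreceptor transcription factors were split. Of 12 listed, 11 had a gain and the median share was 26.1%. Nrl, the leucine zipper factor that specifies rods, and Nr2e3, its nuclear receptor partner, each had 100% of window CpGs in a single gain, at 35.7% in Cre- and 70.3% in Tet tcKO for Nrl and at 34.7% and 73.2% for Nr2e3. Crx had 75.4% (21.3% to 67.4%), Rorb 32.2% (33.2% to 71.8%) and Otx2 34.5% over 7 gains (21.3% to 39.0%). Esrrb, an orphan receptor of rods, had 9.60% (32.2% to 59.6%). At Neurod1 the called CpGs made up 14.9% of the window and stayed low in both groups, at 4.88% and 11.1%. The retinal homeobox gene Rax had no region.

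Among the 13 autosomal cone genes, 12 had a gain and the median share was 45.4%, with a wide range. The highest, Kcnv2, is the channel subunit of photoreceptors named above and not of cones alone, and it had 87.0% (30.6% to 78.9%). Gnat2, the cone transducin alpha subunit, had 73.9% (34.7% to 60.5%), and Gnb3 64.5% (28.2% to 46.9%). Pde6c, the cone phosphodiesterase, had 61.0% (67.3% to 80.4%), Kcne2 63.7% (54.2% to 71.9%) and Gngt2 45.4% (49.8% to 69.3%). The lowest were Opn1sw, the short-wavelength opsin, with 7.69%, and Cngb3 with none. Median window density was 1.27 CpGs per 100 bp for the rod phototransduction list and 1.41 for the cone list, so both were poorer in CpGs than the median gene. Protein-coding genes with 1 to 2 CpGs per 100 bp had a median share of 5.80%.

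**Figure D4:**
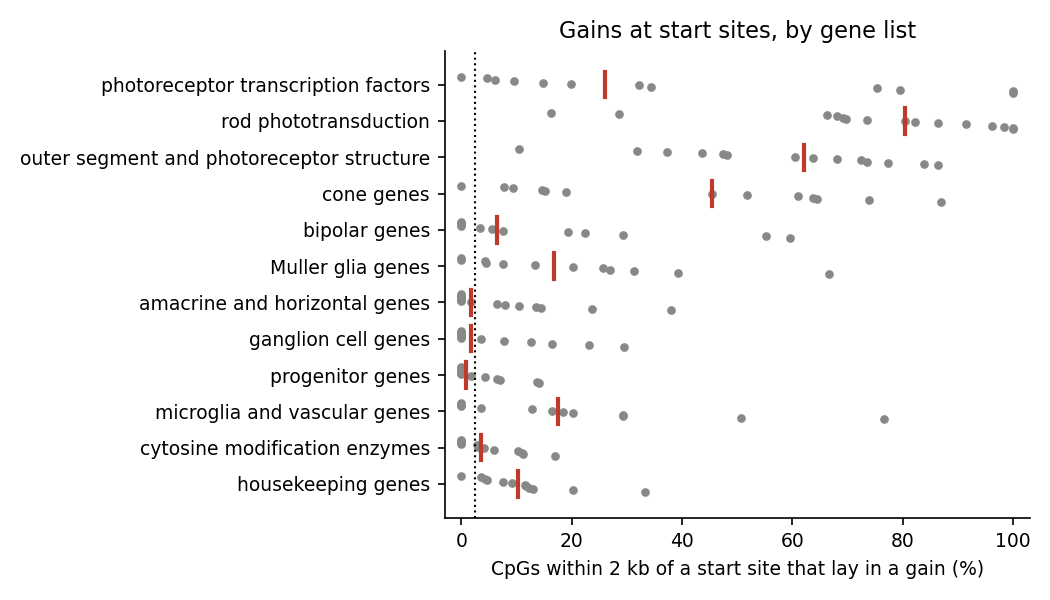
Share of the CpGs within 2 kb of a start site that lay in a gain (x axis, percent) for each autosomal gene of 12 lists (grey points), with the median of the list (red line) and of all protein-coding genes (dotted line, 2.55%). The medians are 80.4% for rod phototransduction and 62.1% for outer segment and photoreceptor structure, and 0.875% for progenitor genes.

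The lists for other cell types had smaller shares. Of all protein-coding genes 52.6% had a gain. Among those with 1 to 2 CpGs per 100 bp 56.2% did, and among those with 2 to 4 66.3% did. Of 12 Müller glia genes 10 had a gain, with a median share of 16.8%. The highest was Rlbp1, which encodes a retinaldehyde-binding protein, with 66.7% (43.9% to 69.2%), and Glul, glutamine synthetase, had 13.4% (42.3% to 57.2%). Of 12 bipolar genes 8 (66.7%) had a gain, with a median of 6.52%. The windows of this list had a median of 2.31 CpGs per 100 bp, so that count was near the share of all genes of such density. The highest shares were those of Gpr179 and Lrit3, of the ON-bipolar signalling complex, with 59.6% and 55.2%. Trpm1 had 29.3%, Prkca 19.4% and Grm6 5.51%, and Bhlhe23, Cabp5, Gnao1 and Grik1 had none. Amacrine and horizontal genes (8 of 15, median 1.85%) and ganglion cell genes (6 of 12, median 1.79%) lay close to the median of all genes. The highest shares in these lists were those of Th, tyrosine hydroxylase, with 38.0%, and Atoh7, the factor needed for ganglion cells, with 29.5%. Of the rest, 7 amacrine and horizontal genes, among them Gad1 and Ptf1a, and 6 ganglion cell genes, among them Pou4f1 and Nefl, had no CpG of their windows in a gain. The windows of these lists were rich in CpGs, with medians of 4.10 and 4.60 per 100 bp. Of all protein-coding genes with 4 to 8 CpGs per 100 bp, 71.6% had a gain and the median share was 4.44%. Both lists thus lay below genes of that density. Of 12 microglia and vascular genes, which mark cells that do not arise from retinal progenitors, 9 had a gain and the median was 17.4%. Cldn5, a tight junction gene of endothelium, had 76.6% of its window in gains at 15.5% in Cre- and 21.5% in Tet tcKO, and Cdh5, the endothelial cadherin, 50.7% at 48.2% and 74.3%. The window of Cx3cr1 held none. Of 12 housekeeping genes 11 had a gain, with a median of 10.3%, such as Actb (13.0%, 49.3% to 66.5%) and Gapdh (12.2%, 31.2% to 52.8%).

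Of 12 progenitor genes 6 had a gain, with a median share of 0.875%, and 4 had a loss, where 1.2% of protein-coding genes had one. Their windows had a median of 4.22 CpGs per 100 bp, and of all genes with 4 to 8 CpGs per 100 bp 3.46% had a loss. Six6 and Six3, homeobox genes of the early eye field, had losses over 145 and 164 CpGs, from 39.0% in Cre- to 16.6% in Tet tcKO and from 27.6% to 17.7%. At Notch1 18 CpGs went from 28.9% to 14.9% while 25 CpGs in another region rose from 30.4% to 41.1%. At Sox2 the loss was small, 6.83% against 4.21% over 14 CpGs, beside a gain of 16 CpGs from 4.46% to 6.05%. Lhx2 had gains alone (29.1% to 40.6%). In the Müller list Hes1 had a loss of 11 CpGs, from 10.0% to 5.10%. Among the enzymes of cytosine modification 8 of 12 (66.7%) had a gain (median share 3.55%) and 1 a loss. The median window of this list had 3.43 CpGs per 100 bp, and of all genes with 2 to 4 CpGs per 100 bp 66.3% had a gain. Tet3 had 16.9% of its window in gains (40.1% to 66.4%), Dnmt1 10.3% (10.9% to 25.6%), and Tet1 and Tet2 had none. Dnmt3a, a de novo methyltransferase, had gains over 75 CpGs (28.6% to 41.3%) and a loss of 5 CpGs (33.1% to 24.8%). The lists were drawn up with earlier results of these data known, so their counts are descriptions of these genes.

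Losses were few, and they were of more than 1 kind. Their share among regions was 2.06% under 1 CpG per 100 bp, 0.465% from 1 to 2, 0.630% from 2 to 4, 4.17% from 4 to 8 and 13.3% at 8 and over. Of the 405 losses at 8 and over, 19.5% lay at start sites. In that densest class 264 losses started at 80% or more, with a median of 94.6% in Cre- and 89.7% in Tet tcKO. In the fixed 1-kb window 21.8% of losses had 4 or more CpGs per 100 bp, against 1.79% of gains and 0.953% of windows along the autosomes. Losses that started below 20% had a median of 6.90 CpGs per 100 bp and lay at start sites in 70.8% of cases, against 47.5% of gains with that start level. Losses that started at 80% or more, 1500 of the 2312, lay at start sites in 2.80% of cases and between genes in 61.0%. Most of these were made of repeats: 65.4% had more than 50% of their bases in sequence that the reference marks as repetitive, against 11.4% of gains with that start level. Losses below 20% had 5.95% and gains below 20% had 3.00%. Along the autosomes 27.1% of 200-bp windows did.

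**Figure D5:**
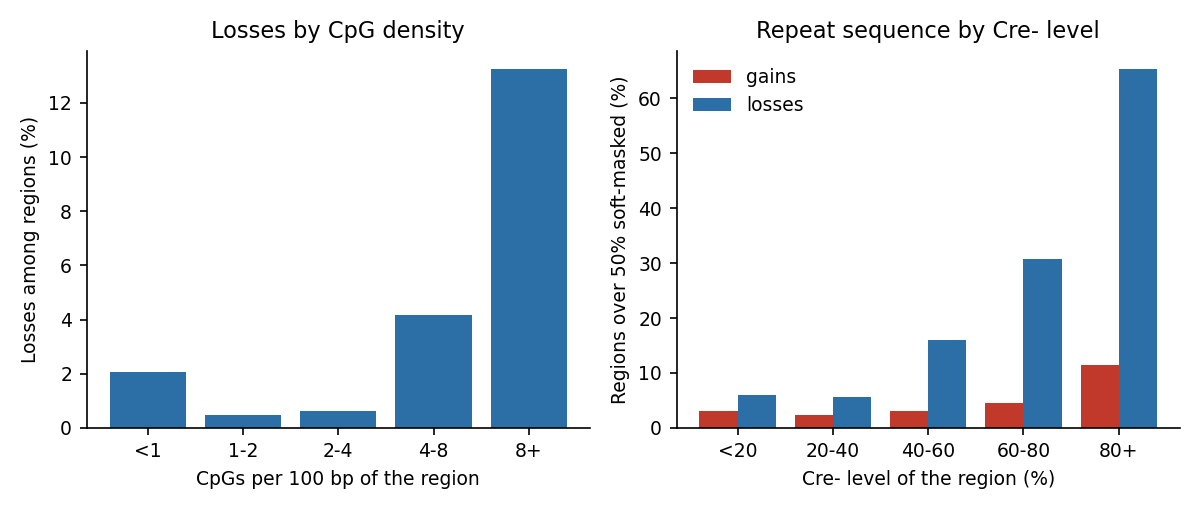
Left, losses as a percentage of all regions in each class of CpGs per 100 bp. Right, percentage of gains (red) and losses (blue) with more than 50% of their bases marked as repeats in the reference, by class of Cre- level; the losses go from 5.95% below 20% to 65.4% at 80% and over, and the gains from 3.00% to 11.4%.

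Set apart by repeats, the 1196 losses with at most 50% repeat bases had a Cre- median of 74.7% and a Tet tcKO median of 53.5% and lay at start sites in 23.8% of cases. The 1116 others had a median of 93.6% and 85.6%, a median change of -7.04 points, and lay at start sites in 3.41% of cases. Reads from repeats are harder to place, and the part of mapping in these losses was not tested. A loss lay a median of 7800 bp from the nearest gain, and 10.4% of losses were within 1 kb of one, while the median space between neighbouring gains was 4342 bp.

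After Tmem200b, the losses that ranked next by the area statistic lay by start sites of Lrba, where 118 CpGs were at 25.2% in Cre- and 11.4% in Tet tcKO, and by Rgs20, a regulator of G-protein signalling, where 134 CpGs were at 24.3% and 10.9%. Losses with midpoints at start sites and Cre- levels from 40% to 60% were led by Nsd1, a histone methyltransferase gene (51.7% to 39.4%, 85 CpGs), Gnas (51.2% to 42.3%, 76 CpGs) and Kcnq1ot1 (40.3% to 32.6%, 57 CpGs). Within 2 kb of their start sites Gnas also had 199 CpGs in gains beside 107 in losses, and Nsd1 55 beside 85. Gnas and Kcnq1ot1 are imprinted, with 1 parental copy methylated at control regions. Among losses with at least 20 CpGs the changes largest in size were -42.4 points at Gm36235 (66.5% to 24.2%), -37.8 points near Gm21762 (59.4% to 21.6%) and -32.5 points at AC102496.1 (72.1% to 39.6%).

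The same DNA had been read by bACE-seq, which detects 5hmC alone, so the 5hmC of each gain was taken from the overlapping regions of that list. The share of gains that overlapped a region with less 5hmC in Tet tcKO was lowest at low start levels: 43.0% below 20%, 73.0% from 20% to 40%, 84.6% from 40% to 60%, 87.2% from 60% to 80% and 80.9% at 80% and over. Any overlap counted, and longer regions overlap more easily. Median lengths in these classes were 305, 487, 480, 374 and 238 bp, and 195 bp for losses. Over all gains the share was 81.7%, or 67.9% when 50% of the gain had to overlap. The bACE-seq list held 582432 autosomal regions. The share for other sequence was not computed, and the part of length was not tested. Where a bACE-seq region was present, the median Cre- 5hmC level was 12.7% in the lowest class and 16.6% to 18.7% in the others. Set against the WGBS level of the same region, 5hmC made up a median of 87.6% of the modified cytosine below 20%, 52.2% from 20% to 40% and 20.1% at 80% and over. The boundaries of the 2 lists differ, so these ratios are rough, and bACE-seq regions were called for a change in 5hmC. Below 20% they rest on 3514 of 8172 gains. The median Tet tcKO 5hmC level was 2.92% in that class and 4.28% at 80% and over. The study reported that a small part of unmodified cytosine stayed unconverted in bACE-seq, and its part in these ratios was not tested. By density the median Cre- 5hmC level fell from 23.0% under 1 CpG per 100 bp to 11.7% at 8 and over. Of the losses, 32.4% overlapped a region with less 5hmC, with a median Cre- level of 9.48%.

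The letters TAATCC, the core recognised by the photoreceptor factors CRX and OTX2, were sought on both strands of the 200 bp around each midpoint, beside the same letters reversed, CCTAAT. This search was chosen after the levels had been seen. TAATCC was present in 7.99% of windows placed every 10 kb along the autosomes and in 11.0% of gains, and the reversed letters in 7.54% and 7.75%. The share with TAATCC was higher in larger gains: 7.32% where the rise was under 10 points (n = 35107 regions), 10.3% from 10 to 20 points, 14.4% from 20 to 40 points and 21.3% at 40 points or more (n = 2629). The reversed letters were also more frequent in larger gains, in 5.26% under 10 points, in 9.72% from 20 to 40 points and in 316 of the 2629 regions at 40 points or more. The share with TAATTA, a homeodomain core, went from 4.14% under 10 points to 12.4% at 40 points or more, so sequence composition also differed between the classes. Losses held TAATCC in 6.31% of windows. TAATTA and an E-box core, CAGATG, were present in 8.09% and 18.8% of gains and in 7.18% and 15.1% of windows along the autosomes. Their letters reversed, ATTAAT and GTAGAC, were present in 6.85% and 5.77% of gains and in 7.37% and 6.60% of those windows. TAATTA shares its first 4 letters with TAATCC. In the Samd7 promoter printed above, TAATCC stands once, on the opposite strand, at bases 112 to 117. A match is a description of letters and says nothing of binding.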

How the data were processed

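DNA of whole P21 retina was measured by WGBS in 3 Cre- and 3 Tet tcKO libraries, and by bACE-seq in the same numbers. According to the labels and the published methods, Trim Galore (0.4.4) served for trimming, Bismark (0.18.2) with Bowtie2 for alignment to mm10, SAMtools (1.15.1) for filtering, Picard and GATK (4.1.3) for duplicates and MethylDackel (0.6.1) for CpG levels. Both strands of a CpG were summed, and the authors called regions with DSS on smoothed levels. Bisulfite reads carry reduced sequence, so reads from repeats are placed less surely, and smoothing makes boundaries less exact than levels. The smallest region had 4 CpGs and 51 bp.

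The authors deposited, for each region, the mean level of each group as a fraction from 0 to 1, printed here as percent. The deposited difference was used only to check the sign of the change, and the deposited area statistic, a score summed over CpGs, only to rank regions. Both are columns of the authors' own comparison and their values are not printed. In 70 autosomal regions, 29 gains and 41 losses, the sign of that score disagreed with the difference, and the direction of the difference was used. Depth per sample was not analysed here, since these files hold group means alone. No column of per-sample values was left unused.

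Each region started and ended on a CpG of GRCm38. Classes were set at 20, 40, 60 and 80% of the Cre- level and at 1, 2, 4 and 8 CpGs per 100 bp. Start sites, exons and genes were those of protein-coding and long noncoding genes of the GENCODE M21 basic annotation. Sequences came from the NCBI RefSeq copy of GRCm38 and, for Samd7, from the RefSeq promoter table of the same build. A promoter of Nrl had been planned for printing and was replaced because other transcripts annotate it as UTR. Named regions are the 8 of each direction with the largest area statistic, the 8 with the largest change among those with at least 20 CpGs, the first 3 at start sites in each class of Cre- level, and up to 6 members of each list by CpGs, with the lowest members added after their values were seen. The regions and the lists were chosen with earlier results of these data known. A few items that these rules name, among them some with little annotation, are not reported here. Overlap routines were tested on simulated data. Work was done in Python 3.11.15 with pandas 2.3.3 and numpy 2.4.6.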

Additional observations from a re-analysis of the deposited data

How the results depend on the processing

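With group means alone, a value was held to have moved when it differed by more than 1.5 times from the one reported. Of 98 alternative values for 17 results, 79 stayed within that range, 19 moved and none changed sign. A filter keeps only some regions, so counts fell by design. With at least 10 CpGs, 66652 gains and 594 losses were left, and 6444 and 162 protein-coding genes had a gain or a loss near a start site. With a difference of at least 10 points, 1117 losses and 77 genes with a loss were left, and the median rise below 20% was 17.1 points. With at least 20 points, 52580 gains and 436 losses were left, 3519 and 9 genes had a gain or a loss, the mean rise in gains was 27.0 points, the median rise from 60% to 80% was 21.8 points, 2.81% of gains lay in exons, and losses made up 27.3% of regions with 8 or more CpGs per 100 bp. Windows of 1 kb and 5 kb put 5.80% and 20.0% of gains at start sites. With at most 50% of bases in repeats, a limit chosen after seeing the data, 1196 losses were left. The median rise below 20% thus depended on the smallest change kept. With a minimum of 20 points it was 28.9 points, close to the 29.3 points of the class from 20% to 40%. Such a minimum by itself raises the class medians and brings them closer. A gain that starts at 80% or more has no room for a rise above 20 points, and none was left. No paired analysis was possible because the file pools the replicates of each group. For the same reason no replicate could be left out.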
